A study of Mus musculus with 72 samples.

Results

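The comparison described here sets interfollicular epidermis in which the clock gene Bmal1 was restored by a Cre recombinase driven from the Krt14 promoter (called RE) against the wild-type control (WT), both at time point 5 of a daily series. Its members are the 4 RE and 4 WT RNA sequencing libraries that the labels place at time point 5, which are 8 of the 72 libraries of the series. One library of each genotype held very little Krt14, so the main result rests on 6 libraries, 3 against 3, and the result with all 8 is given beside it. The study sampled back skin epidermis of mice of 3 genotypes at 6 time points under a daily light and dark cycle, with 4 females per genotype and time point, and asked how the epidermal transcriptome follows the day with or without clocks in other tissues. All mice were C57BL/6 females of 8 weeks. WT mice carried K14-Cre, which expresses Cre recombinase from the keratin 14 promoter of basal keratinocytes. KO mice carried Bmal1-stopFL, an allele of Bmal1 with a stop cassette that Cre can remove, and RE mice carried Bmal1-stopFL with K14-Cre, so that Bmal1 returns in basal keratinocytes and the cells they give rise to while tissues without Krt14 still lack it. The Krt14 promoter is also active in other stratified epithelia. The titles of the RE libraries also hold the letters KO, and all of these libraries were assigned by their genotype label. The time points are numbered in order, and no clock hour is used here. The epidermis was detached from the dermis with dispase and dissociated, and RNA came from pellets of cells, so each library is the bulk RNA of 1 mouse.

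The mammalian clock is a feedback loop of transcription. BMAL1 (gene Arntl) pairs with CLOCK or NPAS2 and switches on the Period and Cryptochrome genes, whose proteins then block the pair, as well as Nr1d1 and Nr1d2, which encode the REV-ERB repressors of Arntl. Dbp, Tef and Hlf, the PAR bZIP factors, are outputs of the loop that carry its timing to other genes. In epidermis the clock is known to time the cell cycle and the metabolism of keratinocytes, which divide in the basal layer, express Krt14 and Krt5 there, and switch to Krt1 and Krt10 in the spinous layer.

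Sequence elements known to be bound by these factors were searched for in the upstream DNA of clock genes. BMAL1 and CLOCK bind the E-box CACGTG, and the PAR bZIP factors bind D-boxes close to TTANGTAA. Below are the bases from 250 to 21 before the RefSeq start (GRCm38.p6) of Cry1, a cryptochrome, and of Per3, a period gene. They are shown because both genes differed between RE and KO, in opposite directions, and both lie on the minus strand. Of the 6 clock genes searched, they were also the only ones with a match to either motif. Capitals mark matches to either motif, searched on both strands.
Cry1, chr10:85185075-85185304: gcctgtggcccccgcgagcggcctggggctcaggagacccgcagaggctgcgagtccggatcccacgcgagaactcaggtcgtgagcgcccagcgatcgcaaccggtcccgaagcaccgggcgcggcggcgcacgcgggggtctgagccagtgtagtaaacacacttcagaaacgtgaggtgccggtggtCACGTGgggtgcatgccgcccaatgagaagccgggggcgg
Per3, chr4:151044686-151044915: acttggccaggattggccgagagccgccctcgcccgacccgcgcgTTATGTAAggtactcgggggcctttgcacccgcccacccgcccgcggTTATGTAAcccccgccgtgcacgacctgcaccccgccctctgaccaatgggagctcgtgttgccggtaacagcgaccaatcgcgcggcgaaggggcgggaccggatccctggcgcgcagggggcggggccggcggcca
The Cry1 window held 1 E-box, starting 60 bases before the start, and no D-box. The Per3 window held 2 D-box matches, starting 205 and 158 bases before the start, and no E-box. Of all 32851 promoters of 300 bases in the RefSeq table, 7.15% held CACGTG and 2.32% held TTANGTAA. The promoters of all 6 clock genes that differed between RE and KO were in the table and were searched over 250 bases before to 50 after the start. Neither motif was found in the windows of Arntl, Nr1d1, Nr1d2 and Hlf. A match describes letters only and is not evidence of binding.

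The 8 libraries held 34900000 to 43400000 reads in genes. Values below are counts per 1000000 reads in genes (CPM), scaled with TMM, a method that equalises the bulk of genes between libraries. The libraries labelled WT replicate 4 and RE replicate 3 stood apart from the rest. Krt14 was at 274 CPM in WT replicate 4 and 343 CPM in RE replicate 3, against 2510 to 6260 CPM in the other 70 libraries of the series. The 13 basal layer markers summed to 6030 and 3940 CPM in these libraries, against 20600 to 32200 CPM elsewhere, while the 10 spinous layer markers summed to 60500 and 69000 CPM, against 18500 to 34200 CPM. Reads from the mitochondrial genome made up 3.14% and 2.68%, against 0.451% to 1.54%. In the 6 libraries kept, Krt14 lay between 3820 and 4810 CPM, Krt5 between 6940 and 8600 CPM and Krt10 between 11100 and 16100 CPM, which are keratinocyte levels. Every endothelial, adipocyte and Merkel cell marker listed (6, 7 and 4 genes) was under 1 CPM in all 6. Langerhans cells were present, with Cd207 at 19.3 to 49.6 CPM. In bulk samples, fewer cells of a type and less RNA per cell cannot be told apart.

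**Figure D1:**
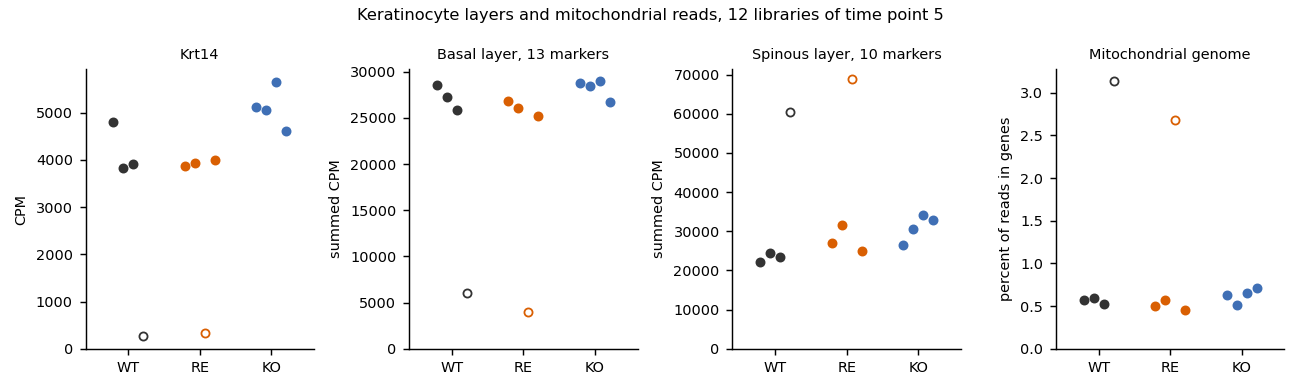
Keratinocyte markers in the 12 libraries of time point 5: Krt14 (CPM), summed basal and spinous markers (summed CPM) and mitochondrial reads (percent of reads in genes), 1 point per library, by genotype. The open points are WT replicate 4 and RE replicate 3, at 274 and 343 CPM of Krt14, far from the filled points of all genotypes.

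The gene that carries the stop cassette was examined first. Arntl (ENSMUSG00000055116, GRCm38 chr7:113207465-113314126, plus strand) was at 87.2, 80.8 and 64.9 CPM in the 3 WT libraries and at 96.0, 51.8 and 70.9 CPM in the 3 RE libraries. The 4 KO libraries held 28.8 to 34.6 CPM. Every RE library thus lay above every KO library, and RE and WT overlapped. Against KO, Arntl was higher in RE by 1.17 on the log2 scale (SE 0.17, adjusted p = 0.0288, edgeR quasi-likelihood test with Benjamini-Hochberg adjustment). Against WT the log2 change was -0.09, with a 95% interval from -0.56 to 0.38 and an adjusted p of 1 by edgeR. WT replicate 4 and RE replicate 3, left out of these tests, held 72.4 and 68.9 CPM.

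Across the transcriptome, no gene passed the threshold between RE and WT. Of 16688 genes tested with edgeR, 0 were called at an adjusted p under 0.05, which is 0% of them, and the smallest adjusted p was 0.511. At an unadjusted p under 0.05 there were 684 genes (4.1%), 363 higher and 321 lower in RE. With all 8 libraries 0 of 16517 genes were called and 143 (0.866%) had an unadjusted p under 0.05. DESeq2 called 43 genes on the same 6 libraries, 34 higher and 9 lower, and limma-voom called 0. The 95% interval of the change lay within 1 log2 unit of 0, a 2-fold difference, for 14213 genes (85.2%), and for 10775 of the 10913 genes (98.7%) with a mean of at least 5 CPM. Intervals of this width leave room for smaller differences at most genes.

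**Figure D2:**
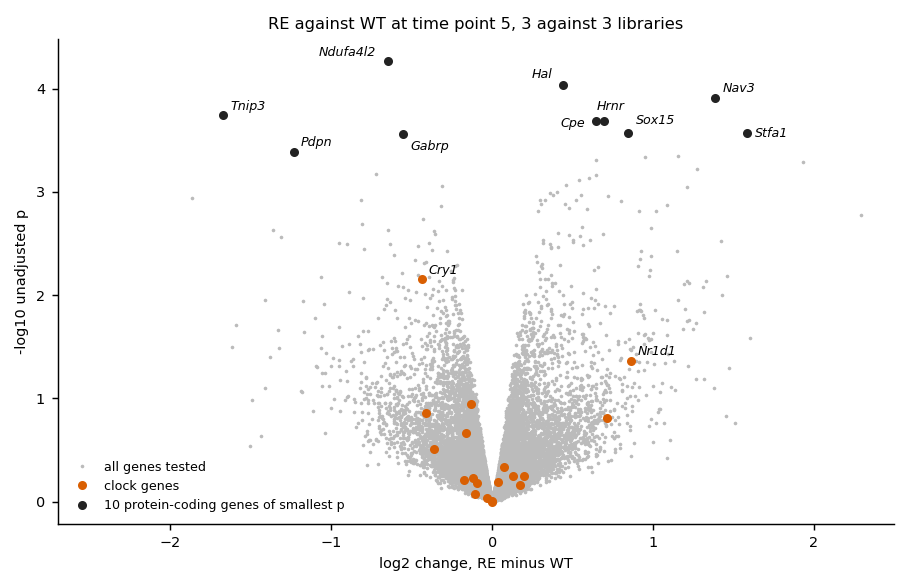
RE against WT at time point 5 for 16688 genes: log2 change (RE minus WT, x axis) and -log10 of the unadjusted edgeR p (y axis), 3 against 3 libraries. Orange points are 19 clock genes and black points the 10 protein-coding genes of smallest p. Cry1 and Nr1d1 are the clock genes farthest up among those shown, and no point passed the adjusted threshold.

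All 20 clock genes examined were expressed above the filter. In RE against WT, 3 of the 20 had an unadjusted p under 0.05, among them Nr1d1 (higher) and Cry1 (lower), where 4.1% of all genes did. edgeR called none of the 20. Their median log2 change was -0.06, beside -0.0008 over all genes. The RE and WT libraries did not overlap for 1 clock gene, Cry1, in the lower direction, where 4.56% of all genes did so. In the higher direction 0 clock genes and 4.27% of all genes did not overlap.

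The activators of the loop lay close together in the 2 genotypes. Clock, the partner of BMAL1, was at 145, 126 and 134 CPM in WT and 139, 130 and 147 CPM in RE. Its log2 change of 0.04 had a 95% interval from -0.14 to 0.21. Npas2, which can replace Clock, was more scattered. It was at 20.6, 18.5 and 15.7 CPM in WT and at 35.7, 8.87 and 17.2 CPM in RE, with RE replicate 1 above and RE replicate 2 below all WT libraries. The 4 KO libraries held 52.4 to 87.7 CPM of Npas2, above every RE library. Rora, a nuclear receptor that activates Arntl, was at 443 to 591 CPM in WT and 489 to 534 CPM in RE.

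Among the repressors, Cry1 was the gene whose groups stood apart. It was at 70.9, 74.0 and 60.0 CPM in WT and at 51.5, 42.4 and 57.4 CPM in RE. Every RE library lay below every WT library, with means of 68.3 ± 7.36 CPM in WT and 50.4 ± 7.58 CPM in RE (SD, n = 3 each). The log2 change was -0.44 (SE 0.12, interval -0.72 to -0.16, unadjusted p = 0.00698, adjusted p = 1, edgeR). KO held 104 to 124 CPM, so that WT lay between RE and KO. RE replicate 3 and WT replicate 4 had 34.4 and 65.9 CPM, and with all 8 libraries the log2 change was -0.54.

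Nr1d1, the REV-ERB alpha gene, differed among the RE mice. The WT libraries held 38.5, 28.8 and 37.1 CPM, and the RE libraries 56.2, 103 and 30.5 CPM. RE replicates 1 and 2 lay above all WT libraries and RE replicate 4 among them. The log2 change was 0.86 (SE 0.36, interval 0.03 to 1.69, unadjusted p = 0.0434, adjusted p = 1, edgeR). It depended on which library was left out, ranging from 0.32 without RE replicate 2 to 1.19 without RE replicate 4. Nr1d2, the REV-ERB beta gene, was at 140, 116 and 154 CPM in WT and at 106, 210 and 134 CPM in RE, with the groups overlapping. WT replicate 4 and RE replicate 3 held 32.7 and 76.9 CPM of Nr1d1.

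The period genes overlapped as well. Per3 was at 103, 116 and 153 CPM in WT and at 57.9, 169 and 137 CPM in RE, its lowest value in RE replicate 1. Per2 was at 76.6, 60.2 and 80.3 CPM in WT and at 26.5, 59.2 and 83.3 CPM in RE, and RE replicate 1 was again the lowest. Per1 was at 250, 148 and 225 CPM in WT and at 323, 137 and 162 CPM in RE. The 95% interval for Per1 ran from -0.72 to 0.72. The remaining repressors overlapped too. Cry2, the second cryptochrome, was at 117 to 125 CPM in WT and 102 to 121 CPM in RE. Bhlhe40, a repressor that competes for E-boxes, was at 187 to 374 CPM in WT and 160 to 263 CPM in RE. Bhlhe41 and Ciart, which also repress BMAL1 and CLOCK, were low, at 0.467 to 3.36 CPM and 0.976 to 2.53 CPM over the 6 libraries.

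Among the PAR bZIP outputs, Dbp and Tef were also lowest in RE replicate 1 and highest in RE replicate 2. Dbp was at 14.0, 15.5 and 19.5 CPM in WT and at 9.99, 48.8 and 22.1 CPM in RE. RE replicate 4 lay between them, above WT. Its log2 change of 0.72 had a 95% interval from -0.33 to 1.76, and without RE replicate 2 it was -0.0235. Tef was at 328, 338 and 377 CPM in WT and at 200, 405 and 358 CPM in RE, with RE replicate 4 among the WT values. Hlf varied little, at 161 to 203 CPM in WT and 177 to 191 CPM in RE. Nfil3, which opposes these factors at D-boxes, was at 34.4 to 67.5 CPM in WT and 23.4 to 58.1 CPM in RE.

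**Figure D3:**
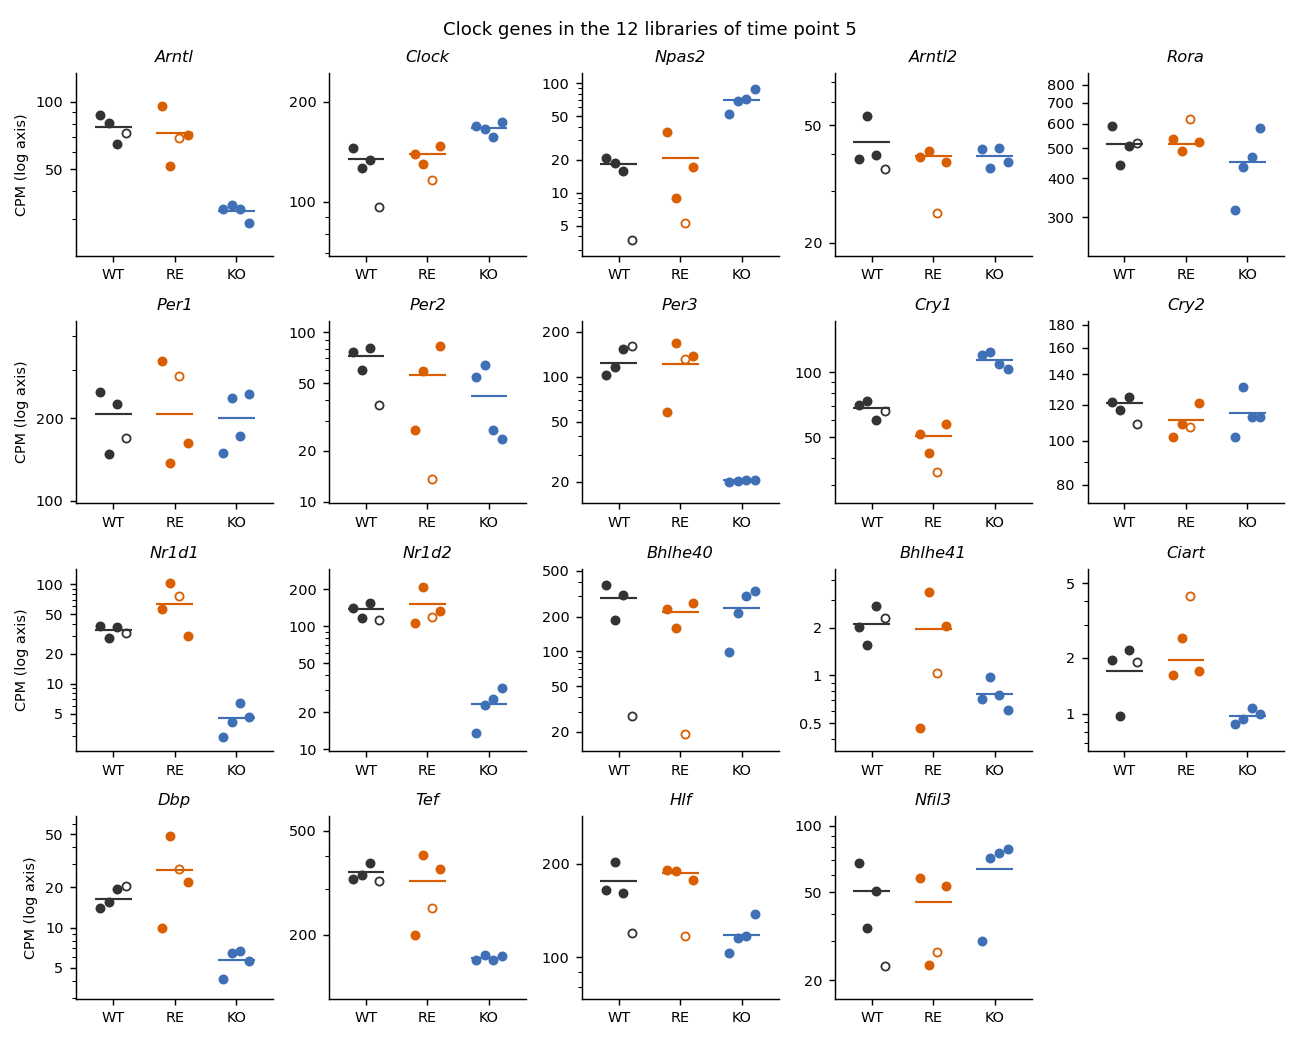
CPM (log axis, different for each gene) of 19 clock genes in the 12 libraries of time point 5, 1 point per library, with the mean as a line. Open points are the 2 libraries of low Krt14, not in the means of the 3 WT and 3 RE libraries. RE points overlap WT for every gene but Cry1, and for Per3, Nr1d1 and Nr1d2 the RE points all lie above KO.

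At time point 5 the clock genes were spread more widely among the RE mice than among the WT mice. Over the 20 clock genes the median SD of log2(CPM + 0.5) was 0.469 in RE and 0.22 in WT at this time point. Over all genes tested the same medians were 0.135 and 0.116. Among the 18 groups of genotype and time point, RE at time point 5 ranked 3 for the spread of clock genes and WT ranked 10. These 2 groups had 3 libraries each and the other groups 4. The group ranked 1, KO at time point 3 (0.75), holds KO replicate 1, whose clock genes went against its label, as described below. The spread was also wider in RE at time points 1, 3 and 4. WT at time point 3 includes WT replicate 2, whose clock genes were nearest to time point 5. It was narrower in RE at time points 2 (0.218, against 0.323 in WT) and 6 (0.289, against 0.391 in WT). These differences in spread were not tested.

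To describe each mouse as a whole, the root mean square log2 difference over the 20 clock genes was taken between a library and the WT mean of every time point, leaving the library itself out of that mean. The 3 WT libraries were nearest to the WT mean of time point 5, at 0.281 to 0.421. RE replicate 4 was also nearest to time point 5, at 0.166. RE replicate 1 was nearest to time point 6 (0.592, against 0.674 for time point 5). RE replicate 2 was nearest to time point 3 (0.646, against 0.82 for time point 4 and 0.728 for time point 5). The place of RE replicate 2 rested on 1 library of time point 3: without WT replicate 2 of that time point, itself nearest to time point 5, its nearest mean was time point 5 (0.728, against 0.808 for time point 3). The 4 KO libraries were all nearest to time point 6, at 0.759 to 1.02. Over the series, 21 of 23 WT libraries and 12 of 23 RE libraries were nearest to their own time point, with the 2 libraries of low Krt14 left out, and so were 5 of 24 KO libraries. Of the KO libraries 23 were nearest to time point 6 whatever their own time, which accounts for 4 of these 5. The fifth was KO replicate 1 of time point 3, at 0.357 from the WT mean of that time point. That distance is within the range of the WT libraries, against the label of KO, and of the tests given here this library enters only the alternative fit over all 18 groups. These counts describe the clock genes and carry no test, since WT libraries form the means.

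**Figure D4:**
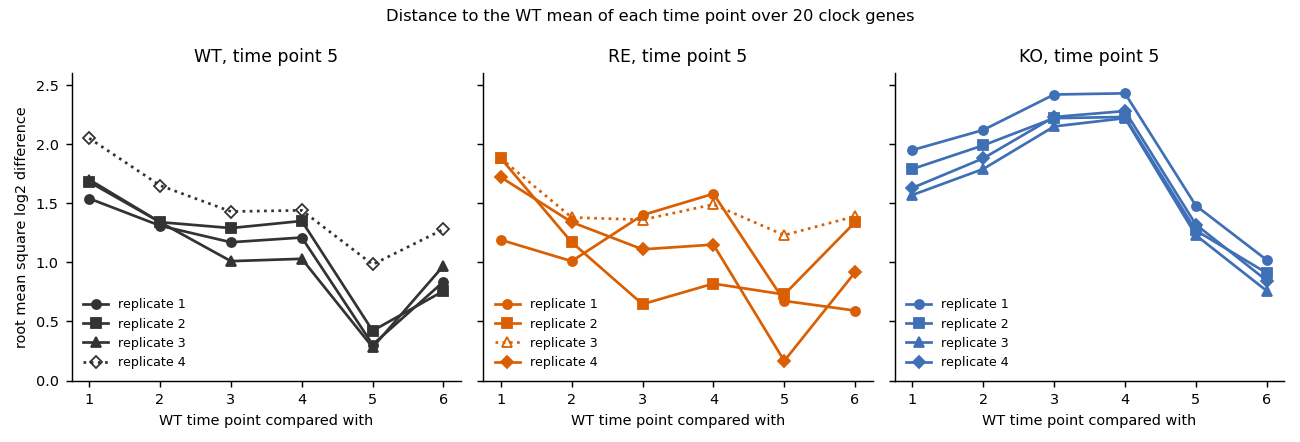
Root mean square log2 difference over 20 clock genes (y axis) between each library of time point 5 and the WT mean of each of the 6 time points (x axis), by genotype, 1 line per library, dotted for the libraries of low Krt14. The 3 filled WT lines dip at time point 5, the RE lines dip at time points 6, 3 and 5, and all KO lines dip at time point 6.

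More genes were called against the genotype without rescue, in a fit of 7 libraries (3 RE and 4 KO) rather than the 6 of RE against WT. Against KO, edgeR called 91 of 16764 genes (0.543%), 42 higher (0.251%) and 49 lower (0.292%) in RE, and 6 of them were among the 20 clock genes. At an unadjusted p under 0.05 there were 932 genes higher (5.56%) and 856 lower (5.11%), and the groups did not overlap for 5.17% of genes in the higher and 4.99% in the lower direction. This comparison shares the RE libraries with the one against WT, so the values are only set side by side. Nr1d1 was higher in RE than in KO by 3.82 on the log2 scale (SE 0.38, adjusted p = 0.00682, edgeR), with 2.94 to 6.34 CPM in KO. Nr1d2 was higher by 2.69 (SE 0.28, adjusted p = 0.00682, edgeR), with 13.5 to 31.3 CPM in KO. Per3 was higher by 2.57 (SE 0.28, adjusted p = 0.0079, edgeR), and KO held 20 to 20.6 CPM. These 3 genes are BMAL1 targets in the textbook loop, and so is Cry1, which went the other way. Hlf was higher by 0.65 (SE 0.093, adjusted p = 0.0261, edgeR). Cry1 was lower in RE than in KO, with a log2 difference of -1.18 (SE 0.12, adjusted p = 0.00682, edgeR). Dbp was at 4.11 to 6.69 CPM in KO, under every RE library, and its log2 difference of 2.23 missed the threshold (adjusted p = 0.0596, edgeR). Npas2 also missed it, with a log2 difference of -1.76 and an adjusted p of 0.0951 by edgeR. With all 8 libraries of RE and KO, which adds RE replicate 3, edgeR called 0 genes (1108 at an unadjusted p under 0.05, smallest adjusted p = 0.0538), and the log2 differences of Nr1d1, Per3 and Cry1 were 3.89, 2.6 and -1.3. Leaving out 1 library at a time gave between 8 and 103 calls, with 8 without KO replicate 3, 11 without KO replicate 2, 19 without RE replicate 4, 21 without RE replicate 2 and 54 without KO replicate 1. Nr1d1, Nr1d2 and Cry1 stayed called without any 1 library. Per3 missed the threshold without KO replicate 2 or 3 (adjusted p = 0.0548 and 0.0527, edgeR). Arntl missed it without any 1 of the KO libraries or RE replicate 4 (adjusted p = 0.0508 to 0.105), and Hlf without KO replicate 2 or 3 or RE replicate 2 or 4 (0.0796 to 0.102), while their log2 differences stayed at 1.12 to 1.2 and 0.639 to 0.68 in these fits.

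Outside the clock, the 10 protein-coding genes of smallest p were picked by this same comparison. Their separation of the 3 RE from the 3 WT libraries, seen for all 10, is therefore no separate support. Over all genes tested the groups did not overlap for 4.27% in the higher and 4.56% in the lower direction. None of the 10 passed edgeR's threshold (adjusted p = 0.511 to 0.610). DESeq2 called all 10 on the same 6 libraries (adjusted p = 9.05e-06 to 0.0463). The gene at the top was Ndufa4l2 (ENSMUSG00000040280, GRCm38 chr10:127514967-127517154), a mitochondrial protein gene known to be induced under low oxygen. It was at 122, 125 and 146 CPM in WT and at 87.1, 86.6 and 76.8 CPM in RE, a log2 change of -0.65 (SE 0.087, interval -0.85 to -0.45). KO held 80.0 to 103 CPM, like RE below the WT libraries. The 2 libraries of low Krt14 held 171 CPM in WT and 45.7 CPM in RE.

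Genes of differentiated keratinocytes were among the higher ones. Hrnr, which encodes hornerin of the cornified layer, was at 77.9, 63.2 and 83.9 CPM in WT and at 109, 126 and 129 CPM in RE (log2 change 0.69, SE 0.11). Hal, which encodes the histidase that makes urocanic acid in the upper epidermis, was at 258, 272 and 289 CPM in WT and at 370, 380 and 362 CPM in RE (0.44, SE 0.063). All RE values of both genes lay above all WT values. Both were also high in WT replicate 4 and RE replicate 3, at 132 and 188 CPM for Hrnr and 890 and 1180 CPM for Hal. Stfa1, a cysteine protease inhibitor of the stefin A family, was at 1.11 to 1.88 CPM in WT and 3.37 to 5.79 CPM in RE. Its near-identical copies make that count uncertain. Sox15, a transcription factor gene, was at 3.17 to 3.4 CPM in WT and 5.57 to 6.60 CPM in RE. Cpe, which encodes carboxypeptidase E, was at 32.1 to 40.0 CPM in WT and 49.8 to 60.6 CPM in RE. Nav3, a neuron navigator gene, was at 1.21 to 1.90 CPM in WT and 3.6 to 4.5 CPM in RE.

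Lower values in every RE library were seen for the rest of these genes. Gabrp, a subunit gene of the GABA-A receptor, was at 33.0 to 40.4 CPM in WT and 25 to 26.3 CPM in RE, with 24.1 to 32.2 CPM in KO. Pdpn, which encodes podoplanin, a surface glycoprotein of basal keratinocytes in activated skin, was at 2.59 to 3.01 CPM in WT and 0.893 to 1.38 CPM in RE. Tnip3, an inhibitor of NF-kappaB signalling, was at 0.976 to 1.11 CPM in WT and 0.276 to 0.366 CPM in RE. Tnip3 was also lower in RE than in KO, with a log2 difference of -2.5 (adjusted p = 0.0336, edgeR), with 0.913 to 2.48 CPM in KO.

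In all, 42 lists with 538 genes were examined, chosen with earlier results of these data known. Of these genes 472 passed the filter on low counts. Between RE and WT, 48 of the 472 had an unadjusted p under 0.05, 26 higher and 22 lower. That is a larger share than the 4.1% of all genes tested (2.18% higher and 1.92% lower). Since the lists were chosen with earlier results of these data known, the larger share is no separate support. edgeR called none of them, and the lists below are described by counts and medians only. The groups did not overlap for 18 of the 472 genes in the higher and 23 in the lower direction, which is near the share over all genes tested (4.27% higher and 4.56% lower).

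The differentiation lists had medians above 0. The 10 spinous genes had a median log2 change of 0.20, with 9 of 10 above 0 and 4 at an unadjusted p under 0.05, where 2.18% of all genes were so and higher. Krtdap, a keratinocyte differentiation factor, was at 953 to 1130 CPM in WT and 1180 to 1450 CPM in RE without overlap. Krt1 was at 3290, 4250 and 2930 CPM in WT and at 4820, 5600 and 3770 CPM in RE, where the lowest RE library lay under the highest WT library. The summed spinous level was 22100 to 24400 CPM in WT, 24900 to 31500 CPM in RE and 26400 to 34200 CPM in KO, so that both the RE and the KO libraries lay above the WT ones. The 18 granular genes tested, 1 more being below the filter, had a median of 0.29, with 16 above 0 and 4 at an unadjusted p under 0.05. Kprp, a keratinocyte proline-rich protein gene, was at 25 to 29.7 CPM in WT and 33.4 to 39.6 CPM in RE. Sdr9c7, an enzyme gene of the barrier lipids, was at 10.9 to 12.7 CPM in WT and 16 to 21 CPM in RE (log2 change 0.64, adjusted p = 0.613, edgeR). The summed basal markers, by contrast, were 25800 to 28600 CPM in WT and 25200 to 26800 CPM in RE. In WT replicate 4 and RE replicate 3, where basal markers were low, the granular sums were 2640 and 2910 CPM, against 1080 to 1440 CPM in the other WT and 1330 to 1630 CPM in the other RE libraries. The part of the mix of layers in the difference between RE and WT was not tested. With all 8 libraries the medians were 0.11 for spinous and 0.17 for granular genes.

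Genes of the response to low oxygen had medians below 0. Of 18 hypoxia genes 13 were below 0, with a median of -0.22, and 5 had an unadjusted p under 0.05, all lower, where 1.92% of all genes were so. For 4 of the 18 the RE libraries all lay below the WT libraries, where 4.56% of all genes did so. Vegfa, the vascular growth factor gene, was at 41.8, 27.7 and 43.5 CPM in WT and at 19.9, 19.9 and 24.3 CPM in RE. Its log2 change was -0.82 (SE 0.17, interval -1.21 to -0.43, adjusted p = 0.613 by edgeR and 0.00278 by DESeq2), and KO held 21.5 to 33.1 CPM. P4ha1, a collagen prolyl hydroxylase gene, was at 65.7 to 76.6 CPM in WT and 54.9 to 61.5 CPM in RE. The 18 glycolysis genes had a median of -0.15, with 16 below 0, 5 lower and 1 higher at an unadjusted p under 0.05. Slc16a3, the lactate exporter, was at 7.5 to 9.51 CPM in WT and 4.5 to 6.94 CPM in RE (log2 change -0.65, adjusted p = 1, edgeR). Ldha, lactate dehydrogenase A, was at 61.1 to 66.8 CPM in WT and 56.2 to 58.8 CPM in RE, and pseudogenes make its count uncertain. The summed hypoxia level overlapped between the groups, at 809 to 921 CPM in WT and 810 to 843 CPM in RE.

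The summed levels of the S phase, G2 and mitosis, and sterol and fatty acid synthesis lists overlapped between the groups, and those of the fatty acid oxidation list did not. All 24 S phase genes had a log2 change below 0, with a median of -0.27, where 49.7% of all genes were above 0. Of the 24, 1 (Mcm6) had an unadjusted p under 0.05, lower, where 1.92% of all genes were so. The summed S phase level was 825, 753 and 773 CPM in WT and 418, 815 and 669 CPM in RE. RE replicate 1 was thus the lowest and RE replicate 2 lay among the WT libraries. The 23 G2 and mitosis genes had a median of 0.10 and sums of 652 to 816 CPM in WT and 585 to 904 CPM in RE. All 24 sterol and fatty acid genes were above 0, with a median of 0.19. Of these, 2 had an unadjusted p under 0.05, higher, where 2.18% of all genes were so. The sums of this list were 3250 to 4110 CPM in WT, 3420 to 4690 CPM in RE and 4270 to 5300 CPM in KO. They overlapped between WT and RE and between RE and KO. The 13 fatty acid oxidation genes had a median of 0.09, with 10 above 0. Of these, 1 had an unadjusted p under 0.05, higher, where 2.18% of all genes were so. The sums of this list were 993 to 1030 CPM in WT and 1050 to 1110 CPM in RE, without overlap, and 969 to 1180 CPM in KO. This separation was seen among the sums of 42 lists and was not tested. Genes of a list were measured in the same 6 libraries, so their counts by sign are not counts of independent values. The 49 oxidative phosphorylation genes (median 0.02) and the 15 nucleotide excision repair genes (median -0.02) had none at an unadjusted p under 0.05, and each of their 95% intervals lay within 1 log2 unit of 0.

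**Figure D5:**
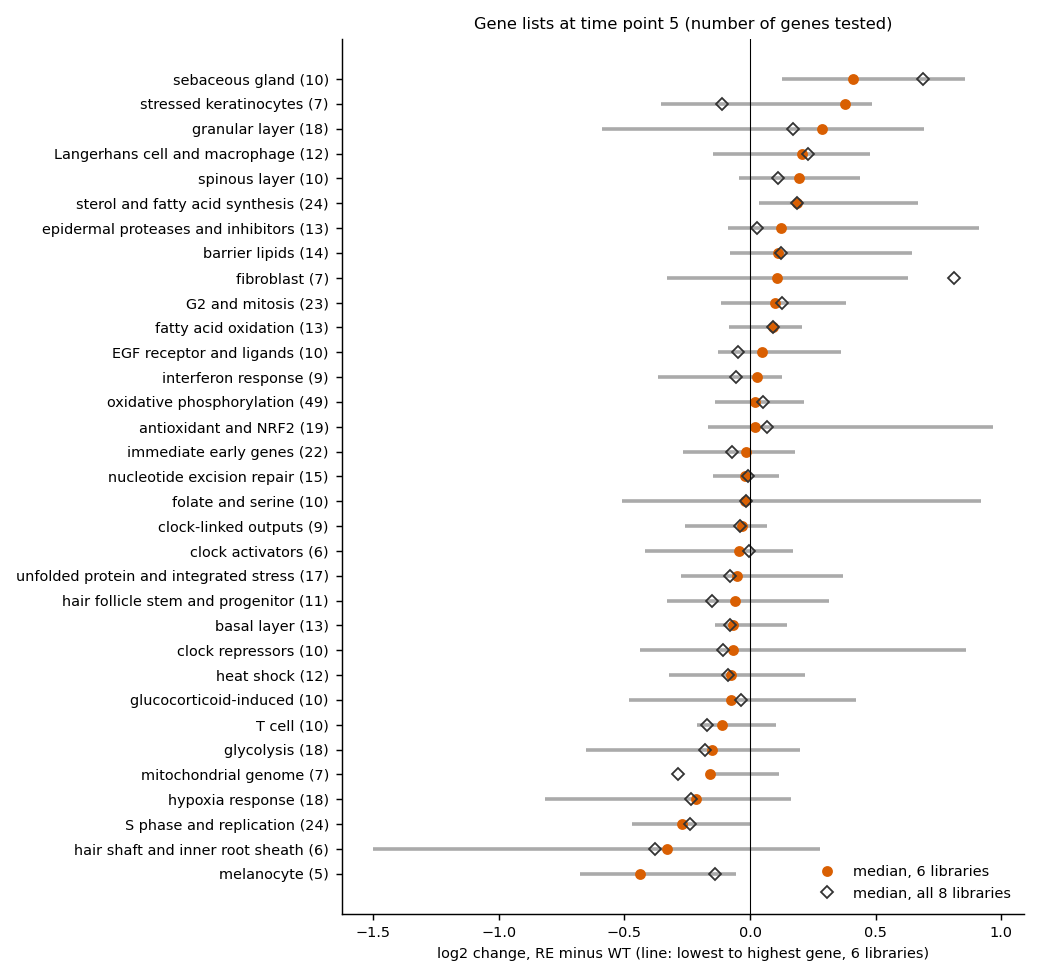
Log2 change (RE minus WT, x axis) of each list with at least 5 genes tested: the orange point is the median over the 6 libraries, the open diamond the median with all 8, and the line runs from the lowest to the highest gene. Medians run from -0.44 for melanocyte to 0.41 for sebaceous gland markers, and most lines cross 0.

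Markers of other skin cells were low or scattered. The 10 sebaceous markers tested had a median of 0.41, and their sum was 112 to 125 CPM in WT and 50.5, 175 and 220 CPM in RE, so the RE mice lay on both sides of WT. The 12 Langerhans cell and macrophage markers had a median of 0.21 and sums of 320 to 505 CPM in WT and 403 to 621 CPM in RE. The 10 T cell markers had a median of -0.11, with sums of 107 to 144 CPM in WT and 108 to 129 CPM in RE. Of 11 fibroblast markers 5 were under 1 CPM in all 6 libraries, and Col1a1 was at 0.571 to 3.31 CPM. The 5 melanocyte markers tested were all below 0, with sums of 20.3 to 25.5 CPM in WT and 17.1 to 23.5 CPM in RE.

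Whether the difference between RE and WT was itself different at time point 6 was tested with an interaction term over 14 libraries, including the 4 RE and 4 WT libraries of time point 6. Of 17412 genes edgeR called 0 (0%), with 499 (2.87%) at an unadjusted p under 0.05, of which 263 were higher (1.51%) and 236 lower (1.36%). DESeq2 called 3 (Sox15, Rhbdl3 and Gmnc). Sox15 had the smallest p. It was at 4.48 to 4.99 CPM in WT and 4.14 to 5.02 CPM in RE at time point 6, where the groups overlapped, and the difference between time points was 0.86 on the log2 scale (SE 0.16, interval 0.53 to 1.2, adjusted p = 0.964 by edgeR and 0.0129 by DESeq2). Krt2, a keratin of the upper spinous layer, went the other way. At time point 6 it was at 4.44 to 6.07 CPM in WT and 12.5 to 18.1 CPM in RE, while at time point 5 it was at 5.89 to 7.5 CPM in WT and 6.76 to 10.7 CPM in RE. Krt2 was at 1.48 to 3.57 CPM in KO at time point 5, below every RE library (log2 difference 2.03, adjusted p = 0.0261, edgeR). The difference between time points for Krt2 was -1.07 (SE 0.25, interval -1.59 to -0.55, adjusted p = 1, edgeR). Among clock genes, Nr1d2 was at 62.3 to 74.4 CPM in WT and 109 to 156 CPM in RE at time point 6, without overlap, whereas the groups overlapped at time point 5. The difference for Nr1d2 was -0.88 (SE 0.27, interval -1.44 to -0.31, unadjusted p = 0.00495, adjusted p = 1, edgeR). For Per3 it was -1.10 (interval -2.23 to 0.02) and for Nr1d1 -0.52 (interval -1.80 to 0.76).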

How the data were processed

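RNA of interfollicular epidermis was sequenced in 72 libraries, of which 8 are RE and WT at time point 5. The authors deposited raw read counts per gene, made with Trimmomatic, TopHat2 2.1.1 and HTSeq on mm10 (GRCm38), per the submitters' processing notes. The strand setting is not given in the sources used here, so overlapping and antisense genes may share reads. The HTSeq summary lines were dropped: reads in no feature were 12.8% to 19.0% of reads in the 8 libraries. Gene names and coordinates came from GENCODE M21 (GRCm38), in which 45143 of 46078 gene identifiers matched.

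Tests on the deposited counts used edgeR 4.0.16 under R 4.3.3 (TMM scaling, filterByExpr, quasi-likelihood F-test, Benjamini-Hochberg adjustment over all genes tested, threshold 0.05). RE against WT used RE replicates 1, 2 and 4 and WT replicates 1, 2 and 3. RE against KO used the same RE libraries with the 4 KO libraries, 7 in all, and no WT library. The interaction added the 8 RE and WT libraries of time point 6 to those of RE against WT. Replicates are separate mice. Log2 changes carry 95% intervals. Log2 levels in the distances and SDs used an offset of 0.5 CPM. The fits were tested on simulated data.

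The members and gene lists were chosen with earlier results of these data known. Clock genes, the 10 protein-coding genes of smallest p, and up to 4 genes of smallest p from each list could be named. Alternatives were RLE scaling, no filter, at least 5 CPM, DESeq2 1.42.0, limma-voom (limma 3.58.1), a fit of all 18 groups, a replicate block and leaving out each library. Within each genotype, no 2 libraries of this time point were repeats of each other. Pairs across genotypes were not compared. The values of 1 of the 20 clock genes are not reported here, though it counts in the summaries over them.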

Additional observations from a re-analysis of the deposited data

Results flagged for a closer look

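In each group of 4 libraries, the highest or lowest value was compared with its nearest neighbour by Dixon's criterion. Of 105 values tested 15 passed it, where the criterion passes about 1 in 20 groups by chance. Most of the 15 were in WT replicate 4 or RE replicate 3, already picked out by their low Krt14. The measures also overlap, since the basal sum contains Krt14 and Krt5. The count is therefore no test against chance. WT replicate 4 was far from the other WT libraries in summed basal markers (6030 CPM), spinous markers (60500 CPM), stressed keratinocyte markers (1030 CPM) and hair follicle stem and progenitor markers (2230 CPM). It also stood apart in mitochondrial reads (3.14%) and Krt5 (694 CPM). RE replicate 3 was far from the other RE libraries in basal markers (3940 CPM), spinous markers (69000 CPM), mitochondrial reads (2.68%), Krt14 (343 CPM), Krt5 (560 CPM) and genes detected (20362). Both libraries were left out of the main result. KO replicate 1 was low in sebaceous gland markers (59.1 CPM), fibroblast markers (112 CPM) and Nfil3 (30.0 CPM), and it entered the comparison of RE with KO.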

How the results depend on the processing

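Between RE and WT, edgeR called 0 genes under every alternative run but one: without a filter on low counts it called 1, and DESeq2 called 43. For the difference between time points 5 and 6 edgeR called 0 throughout and DESeq2 called 3. Leaving out a replicate gave 0 calls in both. RE against KO moved most: 0 calls with all libraries, 213 without a filter, 56 at 5 CPM or more, 393 with DESeq2, 232 with all 18 groups sharing the spread and 261 with these groups without 3 libraries of time point 3, beside 91. With RLE scaling it was 92 and with limma-voom 75. Leaving out a replicate gave 8 to 103 calls. With the replicate block there were 9 calls, 7 of them among the 91, and 0 with all libraries. Cry1, Per3, Arntl and Hlf missed the threshold with the block (adjusted p = 0.0808, 0.0763, 0.158 and 0.208, edgeR). Hlf also missed it with all 18 groups sharing the spread (adjusted p = 0.078, edgeR). Whether the replicate numbers pair the mice cannot be told from so few pairs. Among the 6 libraries, same-numbered RE and WT libraries correlated at 0.09 and 0.224 in their deviations, and other-numbered ones from -0.301 to 0.274. With all 8, same-numbered ones correlated from -0.758 to 0.65, the lowest for replicate 4, whose WT library was low in Krt14. The block called 0 genes between RE and WT.

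Some clock genes turned sign. Log2 changes between RE and WT became, for Per1, -0.000647 without a filter, -0.0699 with limma-voom, -0.000986 with all 18 groups and -0.000827 without the 3 libraries. For Npas2 they became -0.0674 with limma-voom and -0.109 with the block. Rora gave -2.94e-06 without a filter and -0.00417 with the block, Clock -0.00814 with the block, and Hspa1b, of the heat shock list, -0.0347 with all 8 libraries. Leaving out 1 replicate at a time ranged from -0.342 to 0.105 for Arntl, -0.248 to 0.0039 for Arntl2, -0.0117 to 0.0922 for Clock, -0.483 to 0.533 for Npas2, -0.0957 to 0.115 for Rora, -0.473 to 0.228 for Per1, -0.342 to 0.301 for Per3, -0.181 to 0.326 for Nr1d2, -0.723 to 0.347 for Bhlhe41, -0.0826 to 0.43 for Ciart, -0.0235 to 1.11 for Dbp, -0.315 to 0.129 for Tef and -0.403 to 0.136 for Nfil3. The cause was not tested. RE replicate 2 was nearest to time point 5 rather than 3 without WT replicate 2 of time point 3 or without the PAR bZIP genes, alternatives chosen after seeing the data, and no other library moved. The median SE of a log2 change between RE and WT was 0.127 over all genes tested and 0.0927 over those of at least 5 CPM.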

Other observations

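Genes outside the lists differed between RE and KO at time point 5 while RE lay near WT. They were chosen after their values were seen. Aldh3a1, an aldehyde dehydrogenase gene, was at 163, 210 and 214 CPM in RE and 164 to 232 CPM in WT, against 80.8 to 95 CPM in KO (log2 difference from KO 1.19, SE 0.11, adjusted p = 0.00513, edgeR). Cdc25b, a phosphatase gene that promotes entry into mitosis, was at 64.9 to 70.3 CPM in RE, 60.8 to 75.3 CPM in WT and 23 to 36.5 CPM in KO (log2 difference 1.23, adjusted p = 0.0079, edgeR). Igf2bp2, an RNA-binding protein gene, was at 1.18 to 1.47 CPM in RE, 0.957 to 2.01 CPM in WT and 3.78 to 5.25 CPM in KO (log2 difference -1.73, adjusted p = 0.00682, edgeR). RE replicate 3 held 40.6 CPM of Aldh3a1, 21.6 CPM of Cdc25b and 0.827 CPM of Igf2bp2, and with it added none of the 3 passed.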
